A study of Mus musculus with 4 samples.

Results

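The genes described here are 38 mouse genes of the lysosome, chosen by their symbols as hydrolases, membrane proteins, proton pump subunits or transcription factors of this organelle. They were chosen with earlier results of these data known, so shares among them are a description. They comprise the transcription factor genes *Tfeb* and *Tfe3*, 16 hydrolase genes, 3 genes of soluble luminal cofactors, 6 genes of lysosomal membrane proteins and 11 genes of the vacuolar proton pump (V-ATPase). An Ensembl identifier with counts was found for 38 of the 38, out of 39179 genes listed per library, and 38 of the 38 passed the expression filter that left 11483 genes for testing. B16F1 is an established mouse melanoma cell line. The parental group was the line as it is cultured on rigid dishes, and the tumor repopulating cell (TRC) group was the cells recovered from spheroids that single B16F1 cells had formed in soft 3D fibrin gels. Both groups therefore share 1 cell line and its genotype, and they differ at once in culture format, matrix and the selection of the cells that survived. PolyA RNA was sequenced from 2 libraries of each group, which carry the replicate numbers 1 and 3 in the labels. The labels do not say that these came from separate cultures, so the p-values measure the spread between these libraries, which may be technical.

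Lysosomes are acidic organelles in which hydrolases break down proteins, glycans, glycolipids and nucleic acids delivered by endocytosis and autophagy. The V-ATPase pumps protons into the lumen with a cytosolic V1 sector that splits ATP and a membrane V0 sector that carries the protons. TFEB, TFE3 and the melanocyte regulator MITF belong to the MiT/TFE family, which binds E-box sequences and can switch on many lysosomal genes together, and melanosomes, the pigment organelles of melanocytes, are related to lysosomes and share proteins such as CD63 with them.

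In total, between 35948295 and 43511554 counts fell on genes per library. Alignments that were not unique made up 15.2% and 17.1% of alignments in the parental libraries and 18.3% and 25.2% in TRC replicates 1 and 3, so genes with near-identical copies can be undercounted. Of the 38 genes, *Cd63* and *Atp6v0c* have annotated pseudogenes that carry their symbol, and their values are uncertain for that reason. Copies annotated under other names were not searched for, so other genes of the 38 may be affected too. Levels are given as CPM, with library sizes scaled by TMM factors before division. TRCs were set against parental cells by the exact test of edgeR, and p-values were adjusted over the whole set of tested genes by the Benjamini-Hochberg procedure (FDR). A gene was called when its FDR was under 0.05. The 9 melanocyte markers were expressed, with a summed level of 16261 to 19458 CPM in the parental libraries and 24575 to 27363 CPM in the TRC libraries. Of these, 9 had a positive log2 fold change, and the groups overlapped for 5 of the 9. The 1 marker called higher was *Dct*, 11.1% of the 9 against 15.9% of all genes tested. *Dct* had 5694 and 4334 CPM in parental cells and 11154 and 10027 CPM in TRCs, a large part of the rise in the sum. Of 10 macrophage markers, 0 passed the filter and 5, including *Ptprc*, *Adgre1* and *Itgam*, had no count in any library. Their summed level was 1.304 to 2.18 CPM in parental cells and 1.25 to 1.47 CPM in TRCs. The 7 fibroblast markers summed to 10.1 to 12.1 CPM in parental cells and 3.22 to 5.68 CPM in TRCs, with *Thy1* at 0 in 3 libraries and *Col1a2* called lower (log2 fold change −2.52, FDR = 4.15e-06), and the 5 endothelial markers summed to at most 0.198 CPM, with *Cdh5*, *Kdr* and *Emcn* at 0 in all 4. The part of these differences in the results below was not tested.

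The E-box core, which the MiT/TFE factors bind, was searched in the promoters of these genes. The genes were chosen by symbol and role, together with *Tfeb* and *Tfe3* themselves. Whether known targets of these factors were favoured in that choice is not stated. The shares below therefore describe the chosen genes and are no independent support for a link to the factors. RefSeq promoters (GRCm38.p6, 250 bases before to 50 bases after each start site) were found for 33 of the 38 genes. The 6 letters CACGTG, which read the same on both strands, stood in a promoter of 14 of the 33 genes (42.4%), against 8.09% of all 27025 genes in the promoter table and 17.3% of 75 other lysosome genes with a promoter there. With only the bases before the start site, the shares were 39.4% for the 33 genes, 6.86% for all genes and 16% for the other lysosome genes. The extended form TCACGTG, which contains CACGTG, on either strand was found for 36.4% of the 33 genes, 4.29% of all genes and 16% of the other lysosome genes. The related TCATGTG, the melanocyte M-box core, was found for 18.2%, 4.31% and 9.33%. Every CACGTG also contains ACGTG, the core that hypoxia-inducible factors bind, and E-boxes are shared with MYC, USF and other factors, so a match names no factor. The windows below, 30 bases each with CACGTG in capitals, are shown for the 2 called genes that hold it, *Ctsf* and *Naglu*, for *Lamp1*, which holds it 4 times, and for the calcium channel gene *Mcoln1* and the pump genes *Atp6v0b* and *Atp6v0d1*. They are read 5′ to 3′ on the gene's strand, and the number is how many bases before the start site the core begins.
Ctsf (79, plus strand, chr19:4855074-4855103): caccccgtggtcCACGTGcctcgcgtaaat
Naglu (73, plus strand, chr11:101070009-101070038): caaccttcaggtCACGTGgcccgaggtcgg
Lamp1 (61, plus strand, chr8:13159088-13159117): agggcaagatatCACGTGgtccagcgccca
Lamp1 (45, plus strand, chr8:13159104-13159133): tggtccagcgccCACGTGatgccgactggc
Lamp1 (28, plus strand, chr8:13159121-13159150): gatgccgactggCACGTGaccacatcacgt
Lamp1 (15, plus strand, chr8:13159134-13159163): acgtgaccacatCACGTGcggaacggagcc
Mcoln1 (71, plus strand, chr8:3500436-3500465): ggtcgcgcttgtCACGTGttcagttcaggc
Mcoln1 (45, plus strand, chr8:3500462-3500491): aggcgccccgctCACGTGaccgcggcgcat
Atp6v0b (36, minus strand, chr4:117887348-117887377): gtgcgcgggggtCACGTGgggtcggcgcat
Atp6v0b (18, minus strand, chr4:117887330-117887359): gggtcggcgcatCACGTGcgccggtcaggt
Atp6v0d1 (3, minus strand, chr8:105566050-105566079): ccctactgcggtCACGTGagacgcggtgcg
The core begins within 100 bases before the start site in 9 of the 14 genes, as the map of core E-box positions shows, and in the other 5, *Cln3*, *Atp6v1a*, *Gaa*, *Gla* and *Ctsl*, all matches lie farther out. Gene starts in GENCODE can lie before those of RefSeq. *Mcoln1* starts at 3500457 there, so that its second window lies inside the gene and its first overlaps it, and *Naglu* starts at 101070012, inside its window. The last *Lamp1* window and the second *Atp6v0b* window reach a few bases into the gene, and the other windows lie before it.

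**Figure D1:**
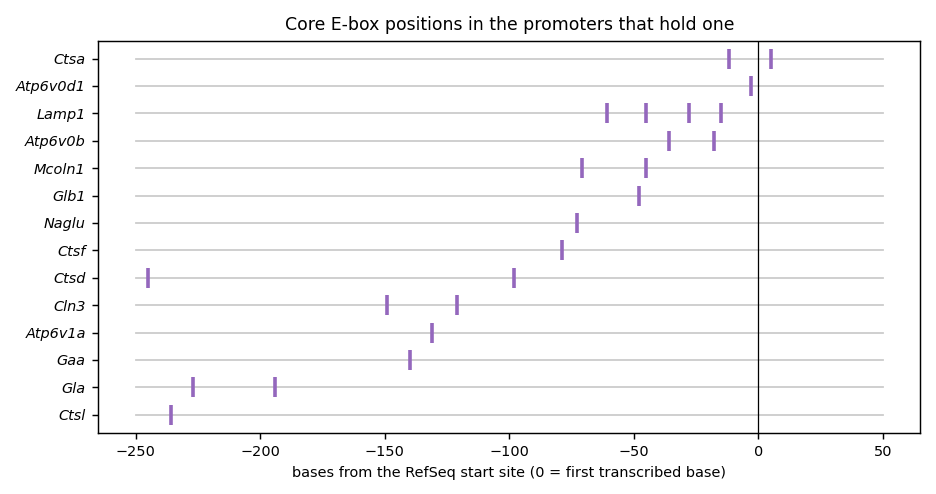
Positions of the core E-box in the promoters of the 14 genes that hold one. Each grey line is 1 gene's promoter window from 250 bases before to 50 bases after the RefSeq start site (x axis, bases), and each purple mark is the first base of a match. *Lamp1* has 4 marks, and *Ctsa* has a mark on either side of the start site.

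At the level of RNA most of the lysosome and V-ATPase genes were not called between parental cells and TRCs, which does not show that they were unchanged. Of the 38 genes, 3 were called higher in TRCs (*Neu1*, *Naglu* and *Ctsf*), 1 was called lower (*Grn*) and 34 were not called. That is 10.5% called, beside 15.9% of all genes tested that were called in either direction. With 4 genes called, the 2 shares cannot be told apart. The shares of all genes called were 8.81% higher and 7.05% lower. Without adjustment 4 of the 38 genes were higher and 2 lower at p under 0.05 in edgeR's exact test. Over all 11483 genes tested, 1703 were higher and 1515 lower at that level. The 38 genes had a median log2 fold change of 0.16, against 0.0034 for all genes tested, with 26 genes positive and 12 negative. Both TRC libraries lay above both parental libraries for 15 genes and below for 5, together 52.6% of the 38. Among all genes tested 60.6% had groups that did not overlap, 30.2% with the TRC libraries above and 30.4% with them below. In bulk RNA, fewer cells of a type and less RNA per cell cannot be told apart.

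The libraries were not equal in this respect. In TRC replicate 3, the library with the most alignments that were not unique, 31 of the 38 genes stood above TRC replicate 1, with a median log2 difference of −0.13 for replicate 1 minus replicate 3, while over all genes this median was −0.00068. Relative to parental replicate 1 the median difference of the 38 genes was −0.0069 for TRC replicate 1 and 0.21 for TRC replicate 3. Relative to parental replicate 3 it was 0.12 and 0.30. The part of the unequal libraries in the positive median was not tested, and without TRC replicate 3 the median was 0.046. The summed level of the 38 genes was 10127 and 10072 CPM in the parental libraries and 10135 and 11437 CPM in the TRC libraries, so TRC replicate 1 was level with the parental cells and TRC replicate 3 stood above.

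**Figure D2:**
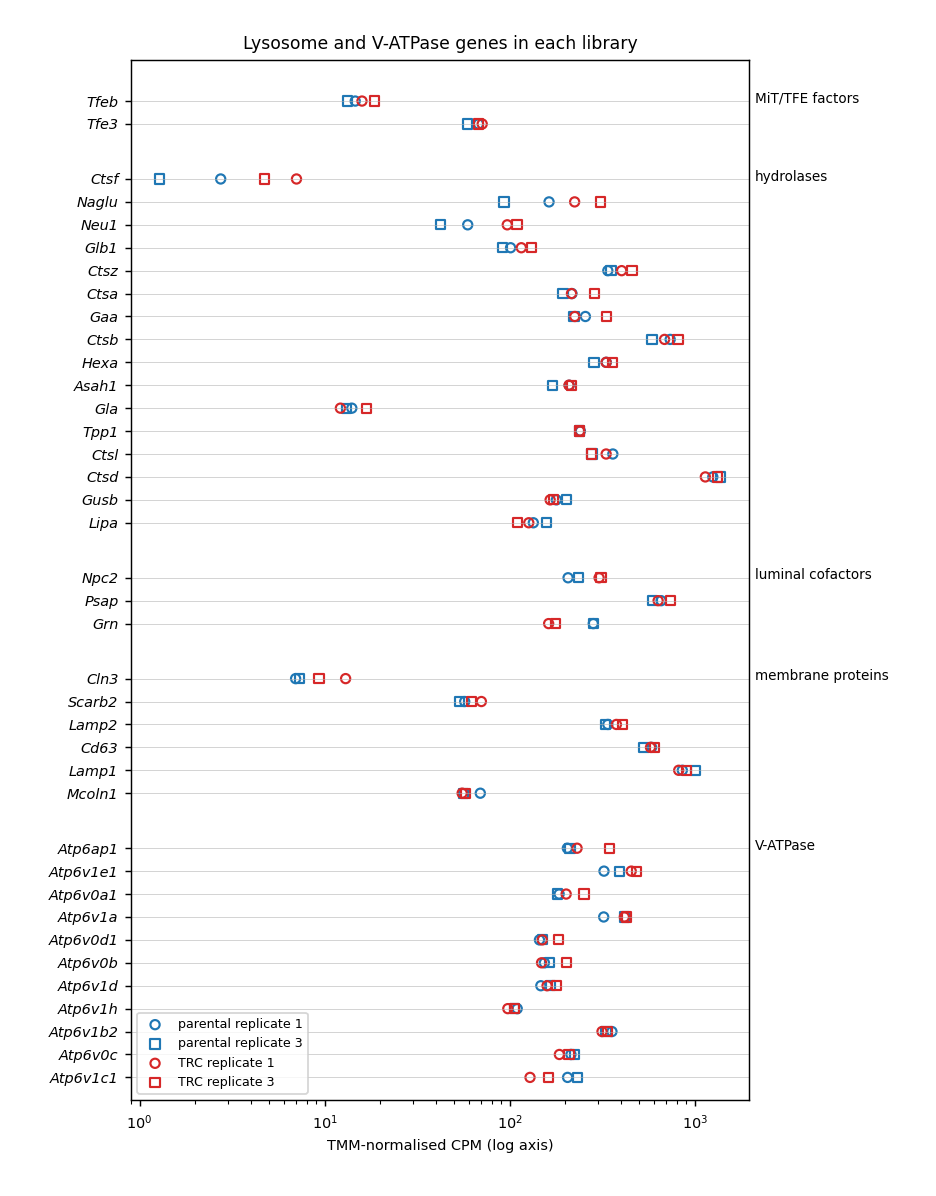
TMM-normalised CPM (log axis) of the 38 genes in each of the 4 libraries, grouped by role and ordered by log2 fold change within each group. Blue marks are parental and red marks TRC libraries, with circles for replicate 1 and squares for replicate 3. The groups lie apart most for *Ctsf*, *Naglu*, *Neu1* and *Grn*, while the marks of *Tpp1* coincide near 240 CPM.

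Levels between genes were compared per length, as CPM per kilobase of annotated exons. *Ctsd*, which encodes the aspartic protease cathepsin D, was highest, with 561 ± 39.0 CPM per kilobase in parental cells and 527 ± 57.2 in TRCs (SD, n = 2). It was followed by *Lamp1*, which encodes an abundant glycoprotein of the lysosomal membrane, with 349 ± 39.9 and 322 ± 22.0. *Ctsz* had 240.4 ± 6.77 and 299 ± 27.5, and *Psap*, the precursor of the saposins that help degrade sphingolipids, had 228 ± 17.4 and 251 ± 28.0. The lowest were *Ctsf* with 0.399 CPM per kilobase in parental cells and *Cln3* with 1.24, and *Tfeb* with 2.46 stood next. *Neu1* and *Naglu*, which were called higher, are genes of intermediate level, whereas the call of *Ctsf* is on the gene with the lowest level of the set.

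The factors themselves were not called. *Tfeb* had 14.6 and 13.3 CPM in parental replicates 1 and 3 and 15.9 and 18.7 CPM in TRC replicates 1 and 3. Both TRC values were above both parental values, but the difference of 0.31 on the log2 scale (SE 0.27, FDR = 0.573 in edgeR's exact test) was close to its standard error, and the 95% interval from DESeq2 ran from −0.21 to 0.84. *Tfe3* had 67.9 and 59.3 CPM in parental cells and 71.1 and 68.2 CPM in TRCs. Its log2 fold change was 0.13 (SE 0.21, FDR = 0.753) with an interval from −0.27 to 0.54. The groups did not overlap but lay within 1 CPM of each other at their nearest libraries. Of the other family members, *Mitf* had 586 and 358 CPM in parental cells and 523 and 570 CPM in TRCs, so the TRC values lay inside the parental range (log2 fold change 0.21, SE 0.26, FDR = 0.664). *Tfec* was at or below 0.157 CPM in all 4 libraries and was not tested. Per kilobase in parental cells, *Mitf* stood at 76.2 CPM, *Tfe3* at 6.87 and *Tfeb* at 2.46, so *Mitf* was the family member with the most RNA. These are RNA levels, and TFEB and TFE3 are known to be controlled by their transport into the nucleus, which was not measured. Of 14 genes that control this transport (the folliculin complex, Rag GTPases, Ragulator, *Slc38a9* and *Pip4p1*), 0 were called by edgeR's exact test. It called 15.9% of all genes tested, so few calls would fall among 14 genes. Without adjustment 1 gene was higher and 1 lower at p under 0.05 in that test, against 1703 higher and 1515 lower of all 11483 genes. The list spanned log2 fold changes from −0.48 to 0.61. DESeq2's Wald test and edgeR's quasi-likelihood test also called 0 of the 14, and 2036 and 1054 of all 11483 genes. These absent calls say little about the control of TFEB and TFE3.

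The 3 calls upward were all among the 16 hydrolase genes, 18.8% of them, against 15.9% of all genes tested called in either direction. *Neu1* (ENSMUSG00000007038, chromosome 17, 34931253 to 34935953), which encodes the sialidase that removes terminal sialic acids from glycoproteins, had 59.4 and 42.3 CPM in parental replicates 1 and 3 and 97.1 and 109.6 CPM in TRC replicates 1 and 3. Both TRC libraries were well above both parental libraries, a 2.03-fold difference of the means in the fit (log2 fold change 1.02, SE 0.24, FDR = 0.000653). The quasi-likelihood test of edgeR gave an FDR of 0.0282, and with each library left out in turn its log2 fold change ranged from 0.80 to 1.29 with FDR values up to 0.0494.

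*Naglu* (chromosome 11, 101070012 to 101077672) encodes the N-acetylglucosaminidase that degrades heparan sulfate. It had 163 and 93.2 CPM in parental cells and 225 and 309 CPM in TRCs, a 2.08-fold difference (log2 fold change 1.06, SE 0.30, FDR = 0.00462). The groups did not overlap, but the parental libraries differed widely from each other. Its call was lost with the quasi-likelihood test (FDR = 0.0581), without parental replicate 3 (log2 fold change 0.71, FDR = 0.174) and without TRC replicate 3 (0.80, FDR = 0.152). The neighbouring gene on the same strand, *Atp6v0a1* (101009452 to 101063719), was not called, with a log2 fold change of 0.31.

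*Ctsf* (chromosome 19, 4855130 to 4860918) encodes the cysteine protease cathepsin F. It rested on few counts, with 122 and 45 in the parental libraries and 293 and 197 in the TRC libraries. These are 2.74 and 1.28 CPM in parental cells and 7.05 and 4.73 CPM in TRCs. Both TRC libraries were higher, by 2.92-fold in the fit (log2 fold change 1.54, SE 0.52, FDR = 0.0192). The call was lost with the quasi-likelihood test (FDR = 0.0803) and without parental replicate 3 (FDR = 0.264), TRC replicate 1 (0.277) or TRC replicate 3 (0.0565), with log2 fold changes of 1.10, 1.21 and 1.79. Without parental replicate 1 its log2 fold change was 2.21 (FDR = 0.004).

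The other 13 hydrolase genes were not called, and their log2 fold changes lay between −0.31 and 0.36. *Lipa*, which encodes the acid lipase for cholesteryl esters and triglycerides, was lowest, with 134 and 159 CPM in parental cells and 127 and 109.9 CPM in TRCs. Both TRC values were below both parental values, with a log2 fold change of −0.31 (SE 0.21, FDR = 0.405). Among the 6 cathepsin genes 1 was called, 16.7% against 15.9% of all genes tested. *Ctsd* had a log2 fold change of −0.09, *Ctsl* of −0.07 and *Ctsb* of 0.18, and the groups overlapped for all of these. *Tpp1*, which encodes a tripeptidyl peptidase, had 241.2 and 238 CPM in parental cells and 239.5 and 239.4 CPM in TRCs, the smallest difference of the set. For *Glb1* and *Ctsz* the TRC libraries lay above the parental ones, with log2 fold changes of 0.36 and 0.32 and FDR values of 0.293 and 0.38. For *Gusb* they lay below, with 179 and 203 CPM in parental cells and 166 and 173 CPM in TRCs. Its log2 fold change was −0.17 (FDR = 0.676 in edgeR's exact test). *Gla* had 0.09 with overlapping groups. *Ctsa*, *Gaa*, *Hexa* and *Asah1* had log2 fold changes from 0.16 to 0.29 with overlapping groups.

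Of the soluble cofactors, *Grn* was the gene called lower. It encodes progranulin, a secreted glycoprotein that lysosomes cleave into granulins. *Grn* (chromosome 11, 102430315 to 102437048) had 283 and 285 CPM in parental cells and 163 and 177 CPM in TRCs, so the libraries of each group lay close together and the groups far apart. The parental level was 1.67-fold that of TRCs (log2 fold change −0.74, SE 0.19, FDR = 0.0106). The call held with the quasi-likelihood test (FDR = 0.0388), and it was lost without parental replicate 3 (FDR = 0.0698), TRC replicate 1 (0.17) or TRC replicate 3 (0.0754), while the log2 fold change stayed between −0.81 and −0.70. The exons of *Grn* share 68 bases with those of *Fam171a2* on the opposite strand. *Npc2*, which encodes the luminal protein that hands cholesterol to NPC1, was the gene nearest to a call on the other side. It had 207 and 235 CPM in parental cells and 305 and 312 CPM in TRCs. The TRC libraries were both higher, by 0.48 on the log2 scale (SE 0.19, FDR = 0.138). *Psap* had a log2 fold change of 0.14 with overlapping groups.

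None of the 6 membrane protein genes was called by edgeR's exact test, and 0 had an unadjusted p under 0.05. Over all 11483 genes tested, 1703 were higher and 1515 lower at that level. The quasi-likelihood test and DESeq2's Wald test also called 0 of the 6, and 1054 and 2036 of all genes tested. The exact test called 15.9% of all genes tested, so the absence of calls among 6 genes says little. *Cln3*, which encodes a membrane protein lost in juvenile Batten disease, had the largest log2 fold change, with 6.97 and 7.31 CPM in parental cells and 12.99 and 9.33 CPM in TRCs. Both TRC libraries were higher, but the difference of 0.64 (SE 0.33, FDR = 0.267) had an interval from −0.0037 to 1.29, and 442 bases of its exons overlap *Apobr* on the opposite strand. *Mcoln1*, which encodes the lysosomal calcium channel TRPML1, was lowest, with 69.5 and 56.3 CPM in parental cells and 55.4 and 57.8 CPM in TRCs. The TRC values lay at the level of parental replicate 3, and the log2 fold change was −0.15 (SE 0.22, FDR = 0.719). *Lamp2* and *Scarb2*, the latter the receptor that carries glucocerebrosidase to the lysosome, had log2 fold changes of 0.23 and 0.26 with separate groups. *Lamp1* and *Cd63* had −0.11 and 0.08 with overlapping groups.

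None of the 11 V-ATPase genes was called by edgeR's exact test, against 15.9% of all genes tested. At that share few calls would fall among 11 genes, so their absence says little. Without adjustment 0 of them were higher and 1 was lower at p under 0.05 in that test. Over all genes tested 1703 were higher and 1515 lower at that level. Of the pump genes DESeq2's Wald test called 1 lower, *Atp6v1c1*, and the quasi-likelihood test called 0. Over all 11483 genes tested these tests called 2036 and 1054. The median log2 fold change was 0.16 for the 4 V0 genes and 0.018 for the 6 V1 genes. *Atp6v1c1*, which encodes the C subunit that helps join V1 to V0, had 206 and 232 CPM in parental cells and 129 and 162 CPM in TRCs. Both TRC libraries were lower, with a log2 fold change of −0.59 (SE 0.22, FDR = 0.0671 in edgeR's exact test and 0.0385 in DESeq2's Wald test). At the other end was *Atp6ap1*, an accessory subunit that takes part in pump assembly, with 205 and 212 CPM in parental cells and 232 and 347 CPM in TRC replicates 1 and 3. This difference of 0.47 on the log2 scale (SE 0.24, FDR = 0.206) rested mainly on TRC replicate 3 and was 0.14 without it. *Atp6v1e1*, a stalk subunit gene, had 324 and 393 CPM in parental cells and 454 and 486 CPM in TRCs, a difference of 0.39 on the log2 scale (SE 0.20, FDR = 0.267). The catalytic subunit gene *Atp6v1a* and its partner *Atp6v1b2* had log2 fold changes of 0.19 and −0.08 with overlapping groups. The remaining pump genes lay between −0.15 for *Atp6v0c*, the proteolipid ring gene, and 0.31 for *Atp6v0a1*.

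**Figure D3:**
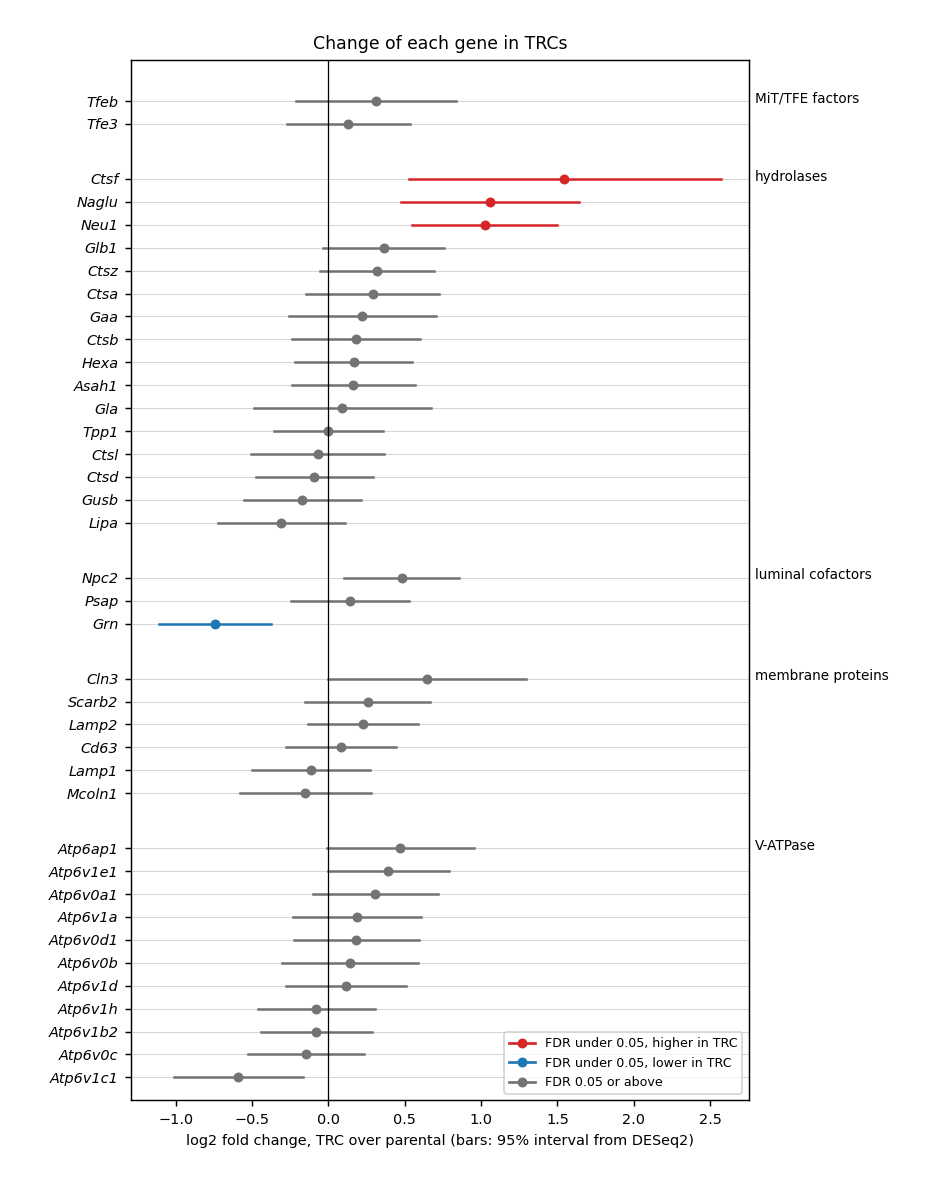
Log2 fold change of each of the 38 genes, TRC over parental (x axis), as edgeR's estimate (points) with the 95% interval from DESeq2 (bars). The red points are *Ctsf*, *Naglu* and *Neu1*, the blue point is *Grn*, and the grey points are the 34 genes that were not called, whose estimates lie between −0.59 and 0.64.

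For the 34 genes that were not called, the intervals state how large a difference the spread between these 4 libraries leaves room for. That spread may be technical, so the intervals may leave out variation between cultures. For 32 of the 34 the 95% interval lay within a log2 fold change of 1 in either direction. The exceptions were *Cln3*, with an upper bound of 1.29, and *Atp6v1c1*, with a lower bound of −1.01. For 5 of the 34 the interval lay within 0.5 in either direction. For the remaining genes a difference of 0.5 lies inside the interval.

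The 14 genes with CACGTG in a promoter had a median log2 fold change of 0.19, with 10 positive and 4 negative, and 2 of them, *Ctsf* and *Naglu*, were called. The 19 genes whose promoters do not hold these letters had a median of 0.17, with 14 positive and 5 negative, and 2 of them, *Neu1* and *Grn*, were called. The 5 genes without a promoter in the table, *Ctsb*, *Asah1*, *Atp6v1b2*, *Atp6v1c1* and *Atp6v1h*, had a median of −0.078. *Lamp1*, with 4 cores in the windows printed above, had a log2 fold change of −0.11. These medians are a description without a test.

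Other genes of the same organelle were read from lists of V-ATPase subunit, assembly and regulator genes, hydrolase genes and membrane genes that share no gene with the 38. These and the further lists below were also drawn up with earlier results of these data known. Their shares beside that of all genes are therefore a description and not independent of the data. Of 101 such genes, 91 passed the filter, of which 15 were called higher and 4 lower, 20.9% against the 15.9% over all genes. Their median log2 fold change was 0.19, with 61 positive and 30 negative. The calls were mostly in the hydrolases, where 10 of 40 tested were higher and 1 lower, 27.5% in all. Those described here are *Smpd1*, *Man2b2*, *Fuca1* and *Hyal1*. *Smpd1*, which encodes acid sphingomyelinase, had 63.7 and 41.5 CPM in parental cells and 197 and 145 CPM in TRCs. The log2 fold change was 1.70 (SE 0.27, FDR = 6.27e-08). Both TRC libraries were far above both parental libraries, and the log2 fold change was larger than that of any of the 38 genes. *Man2b2* and *Fuca1*, which encode glycosidases that trim glycoproteins, had log2 fold changes of 0.92 and 0.79, and *Hyal1*, a hyaluronidase gene, had 1.38 with FDR = 0.00938. The gene called lower was *Dpp7*, a dipeptidyl peptidase gene, with a log2 fold change of −0.79 (FDR = 0.00889).

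Among 32 other membrane genes tested, 5 were called higher and 2 lower, 21.9% against 15.9% over all genes. *Mcoln2*, which encodes the channel TRPML2 of the same family as *Mcoln1*, fell from 26.8 and 24.97 CPM in parental cells to 6.16 and 4.49 CPM in TRCs (log2 fold change −2.28, SE 0.29, FDR = 7.15e-09). The other gene called lower was *Clcn7*, the lysosomal chloride and proton exchanger, with a log2 fold change of −0.63 (FDR = 0.0462). Its partner subunit *Ostm1* was called higher, with 0.63 (FDR = 0.0314), as were *Abca2*, *Sidt2* and *Tmem9b*, with 0.80, 0.76 and 0.71, and the sialic acid exporter gene *Slc17a5*, with 0.74 (FDR = 0.049). Of the 19 other V-ATPase genes tested, 0 were called higher and 1 lower, 5.26% against 15.9% over all genes. That gene was *Atp6v0a4*, the a-subunit isoform known from kidney and inner ear, which fell from 3.69 and 4.34 CPM to 1.23 and 1.11 CPM (log2 fold change −1.78, SE 0.50, FDR = 0.00259). Without adjustment 3 of the 19 were higher and 2 lower at p under 0.05 in edgeR's exact test. DESeq2's Wald test called 1 higher and 2 lower, and the quasi-likelihood test called 0 higher and 1 lower. Over all 11483 genes tested, 1703 were higher and 1515 lower without adjustment, and the Wald and quasi-likelihood tests called 2036 and 1054. The other a-subunit isoforms on that list, named after their values were seen, were not called, *Tcirg1* with a log2 fold change of −0.54 (FDR = 0.0893) and *Atp6v0a2* with −0.06. In parental cells *Tcirg1* had 41.0 CPM per kilobase, *Atp6v0a1* 28.0, *Atp6v0a2* 14.9 and *Atp6v0a4* 0.807, so the isoform that was called had the lowest level of the a-subunit genes.

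**Figure D4:**
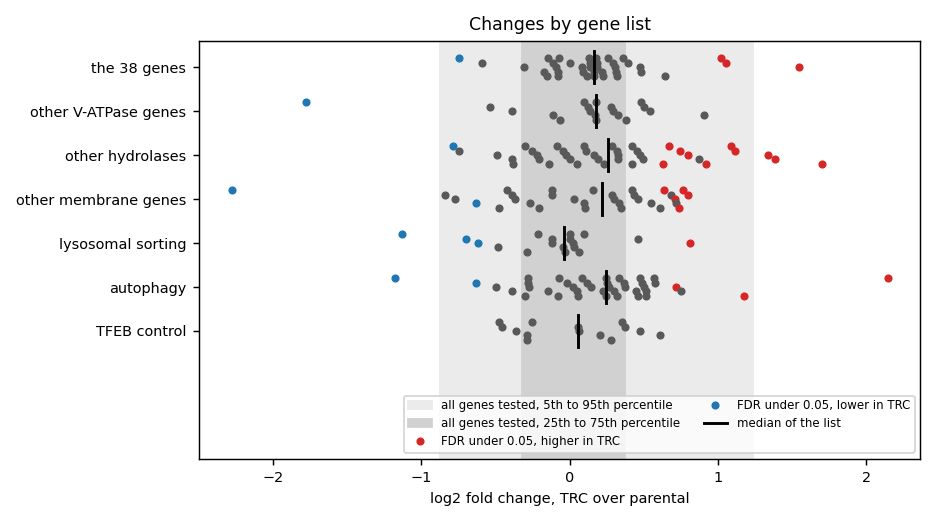
Log2 fold change, TRC over parental (x axis), for the 38 genes and 6 further lists, with 1 point per gene tested, black bars for list medians, and grey bands for the central ranges of all genes tested. Red and blue points are genes called higher and lower. The medians lie between 0.058 and 0.26 except that of lysosomal sorting, at −0.036, and the other hydrolases hold 10 red points, the most of any list shown.

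The genes that route enzymes to the lysosome gave 1 call higher and 3 lower of 18, 22.2% against 15.9% over all genes. *Sort1*, which encodes the sorting receptor sortilin, had 424 and 425 CPM in parental cells and 772 and 720 CPM in TRCs (log2 fold change 0.81, FDR = 0.0047). *Igf2r*, the large mannose 6-phosphate receptor, fell from 308 and 384 CPM to 205 and 222 CPM (log2 fold change −0.70, FDR = 0.0245). *Nagpa*, which uncovers the mannose 6-phosphate tag, had −1.13 (FDR = 0.0119), and the adaptor gene *Ap3d1* had −0.62 (FDR = 0.0422). Of 41 autophagy genes, 3 were called higher and 2 lower, 12.2% against 15.9% over all genes. *Sqstm1*, the cargo receptor p62, fell from 1486 and 1451 CPM to 637 and 662 CPM (log2 fold change −1.18, SE 0.18, FDR = 1.26e-05), and *Vps33a* had −0.63. *Atg9a*, which encodes a lipid scramblase of the forming autophagosome, rose from 65.2 and 72.9 CPM to 135 and 176 CPM (log2 fold change 1.17, FDR = 4.03e-05). *Atg9b* and *Vps39* had 2.14 and 0.72, the former at no more than 3.08 CPM in any library.

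Of the 28 genes called in these lists, 4 (*Smpd1*, *Mcoln2*, *Atg9a* and *Sqstm1*) kept an FDR under 0.05 in each of the 13 alternative analyses, as *Neu1* did among the 38. The other 24 lost the call when at least 1 library was left out. A group then holds 1 library, and calls were lost over all genes tested as well. With the quasi-likelihood test 12 of the 28 stayed called, and with the replicate number as a block 8. The calls over all genes fell from 1822 to 1054 and 785 with these tests. How many of all genes called would keep the call throughout was not counted.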

How the data were processed

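The authors demultiplexed single-end reads of stranded libraries with CASAVA 1.8.2, used Trimmomatic 0.35 for trimming and TopHat2 2.1.0 (Bowtie2 2.2.6, SAMtools 1.3) for alignment to GRCm38, and summed the reads of each Ensembl gene by htseq-count. The strand setting is not given in the sources used here. The deposited values are raw counts per gene and library, and the htseq-count totals that are not genes, were left out. These were 1482969 to 2250453 alignments on no gene per library, 0.82% to 0.96% ambiguous and 15.2% to 25.2% not unique. Of the 38 genes, 10 share exon bases with a counted gene on the opposite strand and 1 on the same strand. The longest of these overlaps were 774 bases of *Ctsb* with *Fdft1* and 495 bases of *Ctsa* with *Pltp*. The part of such overlaps in the counts was not tested.

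Genes with at least 1 CPM in at least 2 libraries were kept. The study's rule, which removed genes with less than 1 CPM in at least 3 samples, was read in this way. As in the study, TMM factors (0.957 to 1.04) were computed. TRCs were compared with parental cells by the exact test with common and tagwise dispersions (edgeR 4.0.16, R 4.3.3), where the prior count was 0.125. The numbers of genes tested and called differ from those the paper reports. Standard errors and 95% intervals came from DESeq2 1.42.0. An exact permutation test of 2 against 2 libraries cannot go below p = 0.333, so p-values rest on the model across genes. Library differences used log2(CPM + 0.5). A count of 3 is 0.0689 to 0.0835 CPM at these depths, which covers counting error only. Symbols, positions and exon lengths came from GENCODE M21 (GRCm38), in which 37607 of 39179 identifiers were found, and promoters from RefSeq. The counts used an earlier Ensembl release, so exon lengths are approximate. The estimated sizes of change were checked on simulated counts, drawn from the model of the test with the dispersions fitted to these libraries. Such counts cannot show how the calls hold where the spread between libraries may be technical. Plots used matplotlib 3.10.9 under Python 3.11.15.

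The 38 genes and the lists were chosen with earlier results of these data known. Values in every library are given for genes called, *Tfeb* and *Tfe3*, and the genes at either end of each role group. Of the other lists up to 5 called genes per direction are named, by FDR, except for 1 result that is not reported here. The genes *Tcirg1* and *Atp6v0a2* are exceptions, and further values by library were added where they show a comparison. Alternatives were DESeq2 size factors, library size only, upper-quartile factors, no filter, at least 10 counts in every library, a trended dispersion, the quasi-likelihood test of edgeR, the same test with the replicate number as a block, DESeq2's Wald test and each library left out in turn.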

Additional observations from a re-analysis of the deposited data

How the results depend on the processing

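The 3 upward calls and the 1 downward call among the 38 genes were unchanged with DESeq2 size factors, upper-quartile factors, no filter, at least 10 counts in every library and a trended dispersion. edgeR's quasi-likelihood test gave 1 upward and 1 downward call (*Neu1* and *Grn*), and so did the same test with the replicate block. Library size only and DESeq2's Wald test each gave 2 downward calls, *Atp6v1c1* being added. With each library left out, where the lone library of a group is assumed to vary like the others, the upward calls ranged from 1 to 3 and the downward calls from 0 to 1. For the 38 genes the median log2 fold change ranged from 0.13 to 0.19 over the other settings and from 0.046 to 0.23 with a library left out, while the median of all genes shifted by less than 0.1 with each scaling.

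Of all genes tested 1822 were called, 1054 with the quasi-likelihood test and 785 with the replicate block, of which 784 were among the 1822. With a library left out the number ranged from 773 to 1932. Of the genes called in the other lists (28), no filter left 18, the quasi-likelihood test 12 and the replicate block 8, and leaving out a library left 6 to 25. Same-numbered libraries did not deviate together across all genes tested (r = 0.027, 11483 genes) and little over the 38 (r = 0.11, across genes, which are not independent replicates), nothing in the labels pairs them, and the lower counts with the block are not a measure of a weaker effect.

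Of 494 values for the 38 genes, 12 changed sign, for 7 genes that were not called. *Tpp1* was at 0.00056 with DESeq2 size factors and with DESeq2's Wald test, 0.0291 with upper-quartile factors and 0.0022 with at least 10 counts. With a library left out, the log2 fold changes ranged from −0.25 to 0.13 for *Ctsl*, −0.0995 to 0.46 for *Gaa*, −0.17 to 0.29 for *Gla*, −0.017 to 0.0092 for *Tpp1*, −0.23 to 0.0068 for *Lamp1*, −0.296 to 0.0069 for *Mcoln1*, −0.11 to 0.33 for *Atp6v0b* and, outside the 38, −0.10 to 0.61 for *Mitf*. The share of the genes with a promoter that held CACGTG was 39.4% with only the bases before the start site, against 42.4%. The cause of these changes was not tested. With 2 libraries per group, the 95% interval lay within 0.5 of 0 on the log2 scale for 5 of the 34 genes not called.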
